A study of Rattus norvegicus with 2 samples.

Results

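Cytosolic ribosomal proteins build the large and the small subunit of the ribosome that translates nuclear mRNAs. The large subunit joins amino acids into the chain, which leaves through the exit tunnel, and the small subunit reads the mRNA codons. Ribosomal protein mRNAs belong to the most abundant of every growing cell, and many of them begin with a pyrimidine tract, the terminal oligopyrimidine (TOP) motif, through which mTOR signalling sets their translation. In neurons, part of them is also carried into axons and dendrites. The members described here were all rows of the deposited tables whose rat symbol begins with Rpl or Rps and a digit, or is Rpsa, Rplp0, Rplp1 or Rplp2, without the Rps6k kinases. This rule used no measured value. It took 75 of the 9894 genes listed, 45 of the large and 30 of the small subunit, and 73 were found by RefSeq accession and 2 by the description in the tables.

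The question of the study was which mRNAs change when PIWIL1, a Piwi protein, is knocked down in newborn cortical neurons. Cortical tissue of E16 Sprague-Dawley rats was dissociated. The cells were electroporated with a control plasmid (Scramble, in the study's own name) or with an RNAi plasmid against PIWIL1. They were then cultured for 48 h in Neurobasal medium with serum and B27. The study does not say which of its rat siRNAs was used here, and the culture holds every cell that survived, electroporated or not. Each condition had 1 library, so every comparison below is between 2 libraries, without a measure of the spread between cultures, and every interval covers counting error only. Piwil1 is not analysed here, so the knockdown itself has no value beside these results.

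Both libraries hold digital gene expression data. Each transcript is represented by a tag of 21 bases that starts at a CATG site, and the copies of a gene's tags add up to its count. The deposited TPM divides that count by the clean tags of the library and scales it to tags per 1000000, with no regard to gene length. The control library held 1947600 tag copies on genes, 57.5% of 3386865 clean tags, and the RNAi library held 1865913, 56.5% of 3303360, so that 3 copies came to 0.886 and 0.908 TPM. Of the neuron markers, 5 passed the FDR on the lower side in the RNAi library and 1, Gap43, on the higher side. Of all genes, 9.53% and 7.14% did, and of non-members with at least 1000 copies, 28.8% and 34.6%. By the full call defined below, 2 markers were lower and none higher, beside 5.97% and 2.96% of all genes. The summed copies of the neuron markers were 15246 in the control library and 13054 in the RNAi library, over 7 of 8 listed. Markers of astrocytes (69 and 73 copies), oligodendrocyte lineage (18 and 19), microglia (48 and 53) and red blood cells (94 and 116) were low in both, those of endothelium had no row, and those of fibroblasts, mainly Col1a1, had 1461 and 1368 copies. The part of these differences in the ribosomal protein values was not tested.

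The finding below turns on single tags, so the most copied tag of each member called between the libraries is shown first. A gene was called when the FDR of Fisher's exact test was at most 0.05 and its log2 ratio of TPM, RNAi over control, was at least 0.58 in size. Capitals mark the last 2 bases of each tag, or the run of A where the tag ends in 3 or more A, because tag ratios in these libraries moved with the tag end.
Rpl32: catgctgcctagcggcttcCG
Rps13: catggtgtggcacaggtccGT
Rpl13: catggcccgagccaatgccCG
Rpl6: catgtaccctcacaaactgGT
Rps27a: catgggtagccactttgacAG
Rps14: catgttggctgcccaggatGT
Rpl11: catgcgctggttccagcagAA
Rps4x: catgatgaaatcAAAAAAAAA
The first 6 were lower in the RNAi library and the last 2 were higher. All 8 lie at site 1 of their transcript. Of 196 tags in the tables that end in 8 or more A and have at least 20 copies, 187 were at site 1, so sites are taken here as numbered from the 3′ end.

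As a whole, the ribosomal protein genes differed little between the libraries. They held 233313 copies, 11.98% of all tag copies on genes (11.93 to 12.03, exact 95% binomial interval), in the control library. In the RNAi library they held 230505 copies, 12.35% (12.31 to 12.40). The intervals do not overlap, but on the TPM scale the summed level differed by only 0.02 on the log2 scale (0.01 to 0.03). In such bulk RNA, a change in the number of cells of a type and a change in RNA per cell cannot be told apart. The median log2 ratio over the 73 members with at least 20 copies in all was -0.01, with quartiles of -0.23 and 0.23, beside -0.08 over the 7443 genes with as many copies. The members split evenly around 0, with 38 below and 35 above. Of the 73, 64 (87.7%) lay within 0.5 of 0, against 71.2% of all genes. Most members are deep, and at like depth the difference was small. The 66 members with at least 1000 copies had a median of -0.02, with quartiles of -0.26 and 0.23. The 667 other genes with as many copies had a median of 0.02, with quartiles of -0.24 and 0.23.

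The subunits were close to each other. The large subunit had a median log2 ratio of 0.02 over 44 genes, with 3 called lower and 1 called higher. The small subunit had a median of -0.04 over 29 genes, again with 3 called lower and 1 called higher. The summed TPM of the large subunit was 40427 in the control library and 39638 in the RNAi library, and that of the small subunit was 28461 and 30141.

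**Figure D1:**
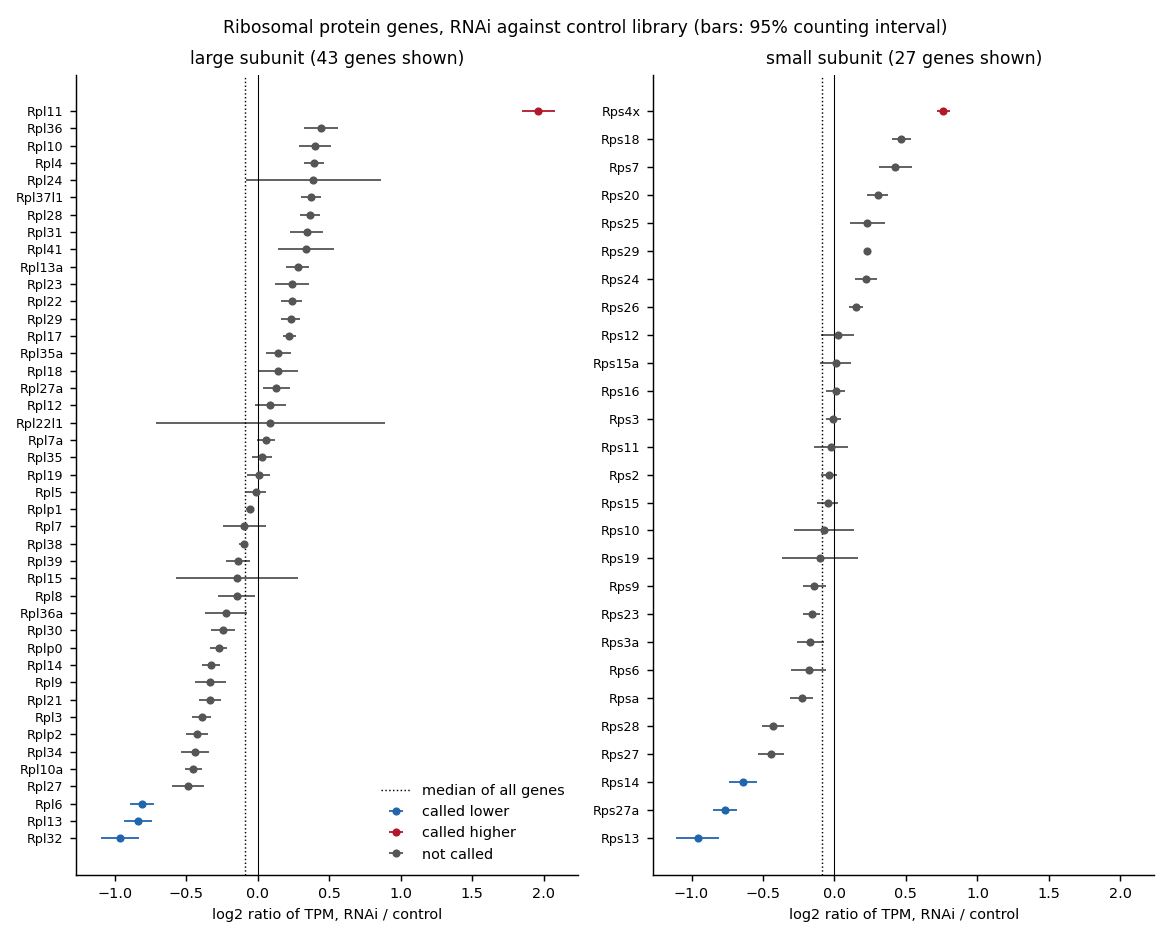
The log2 ratio of TPM, RNAi over control, of 70 ribosomal protein genes with at least 20 copies, by subunit, with exact 95% counting intervals and the median of all genes as a dotted line. Most of them sit within 0.5 of 0, 6 called genes lie at -0.64 or below, and Rpl11 stands alone at 1.96.

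In all, 6 of the 75 members were called lower (8%) and 2 were called higher (2.67%). Of all genes, 5.97% were called lower and 2.96% higher, so neither share was far from the background. With TMM factors or DESeq2 size factors, which shift all ratios up, 5 were lower and 3 higher, and Rps14 was no longer called. By FDR alone, with no ratio threshold, 23 members were lower and 25 higher, beside 9.53% lower and 7.14% higher of all genes. The shares were high among deep genes in general. Of the 66 members with at least 1000 copies, 34.8% passed the FDR lower and 34.8% higher, and of the 667 other genes with as many copies 28.8% and 34.6% did. By the full call, 9.09% of these deep members and 6.60% of the other deep genes were lower, and 3.03% and 4.20% were higher.

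Among the members called lower, Rpl32 had 1384 copies in the control library and 693 in the RNAi library, 409 and 210 TPM. Its log2 ratio was -0.96 (-1.10 to -0.83, FDR = 4.13e-44, Fisher's exact test). Rps13, a protein of the small subunit, had 1067 and 536 copies and a log2 ratio of -0.96 (-1.11 to -0.81). Both genes stood at about the same ratio, and their intervals overlapped. Rpl13 had 2264 and 1237 copies and a log2 ratio of -0.84 (-0.94 to -0.74). Rpl6 had 3274 and 1824 copies and a log2 ratio of -0.81 (-0.89 to -0.72). Rps27a is made as a fusion of ubiquitin with a small subunit protein and so supplies both. It had 3312 copies in the control library and 1899 in the RNAi library, and its log2 ratio was -0.77 (-0.85 to -0.68, FDR = 5.05e-71, Fisher's exact test). Rps14, on the platform of the small subunit, was the least reduced of the 6, with 2205 and 1378 copies and a log2 ratio of -0.64 (-0.74 to -0.54).

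The 2 members called higher were Rpl11 and Rps4x. Rpl11, which with Rpl5 and 5S rRNA forms a particle that binds Mdm2 and so ties ribosome assembly to p53, had 764 copies in the control library and 2902 in the RNAi library, 226 and 879 TPM. Its log2 ratio was 1.96 (1.85 to 2.08, FDR = 8.28e-308, Fisher's exact test), the highest of the members. Rpl5, its partner in the particle, had 3157 and 3053 copies and a log2 ratio of -0.01 (-0.08 to 0.06). The mRNA counts of these 2 partners were thus far apart in ratio as deposited. The distance rested mostly on 1 tag of Rpl11. Its tag at site 1 had a log2 ratio of 2.48, and its tag at site 2 had 0.46. With each tag's ratio corrected by the median of other genes' tags with that end, Rpl11 stood at 1.78 and Rpl5 at 0.26. Rps4x, the X-linked form of a small subunit protein, had 5709 and 9439 copies and a log2 ratio of 0.76 (0.71 to 0.81). Where a spread between cultures was assumed, as a biological coefficient of variation of 0.2 in edgeR's exact test, Rpl11 was the 1 member of the 75 still called.

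Among the next largest rises, Rps18 had 3200 and 4319 copies and a log2 ratio of 0.47 (0.40 to 0.54), and Rpl36 had 987 and 1308 copies and a log2 ratio of 0.44 (0.32 to 0.56). Both passed the FDR but not the ratio threshold.

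The ribosomal stalk, which recruits the translation factors that act as GTPases, was led by Rplp1. Rplp1 had 21827 copies in the control library and 20492 in the RNAi library, and its log2 ratio was -0.06 (-0.08 to -0.03, FDR = 0.15 by Fisher's exact test). The ratio is scaled to all clean tags and the test to tags on genes, and with all clean tags as totals in the test the FDR was 0.0011. Rplp0, which anchors the stalk, had 5142 and 4150 copies and a log2 ratio of -0.27 (-0.33 to -0.21). Rplp2, which pairs with Rplp1, had 3331 and 2422 copies and a log2 ratio of -0.42 (-0.50 to -0.35). Rpl12, at the stalk base, had 1343 and 1394 copies and a log2 ratio of 0.09 (-0.02 to 0.20). Rplp0 and Rplp2 passed the FDR and none of the 4 was called. The intervals of Rplp1 and Rplp2 did not overlap, but after correction for the tag end, described below, their log2 ratios were -0.29 and -0.43.

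Of the exit tunnel proteins, 6 of 8 had a row, with a median log2 ratio of 0.13. Rpl4, Rpl17 and Rpl31 passed the FDR on the higher side, with log2 ratios of 0.39, 0.22 and 0.34, and none was called. After correction for the tag end Rpl17 stood at -0.02 and no longer passed. The 4 proteins of the mRNA channel, Rps2, Rps3, Rps15 and Rps23, had a median of -0.04 and lay between -0.16 and -0.01, and after that correction Rps15 moved from -0.05 to 0.36. Rps6, the substrate of the S6 kinases, had 1142 and 983 copies and a log2 ratio of -0.18 (-0.30 to -0.06, FDR = 0.075 by Fisher's exact test). A chosen list of 14 genes whose loss of 1 copy causes Diamond-Blackfan anaemia, a failure of red cell formation, had 13 with a row. Their median was 0.15, and another choice of such genes was not tried. Of these 1 was called higher (Rpl11) and none lower, beside 2.96% and 5.97% of all genes. By the FDR alone 7 were higher and 2, Rpl27 and Rps28, lower, where of the deep genes outside the members 34.6% were higher and 28.8% lower. Corrected for the tag end as described below, Rpl27 moved from -0.49 to 0.02 and Rps28 from -0.43 to 0.14.

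Of the 10 members with the most copies, Rps4x at 0.76 and Rpl10a at -0.45 lay farthest from 0. Rps29, a zinc-binding protein of the small subunit, had the most copies, 23501 in the control library and 26862 in the RNAi library, with a log2 ratio of 0.23 (0.20 to 0.25). Rpl38 had 15420 and 14058 copies and a log2 ratio of -0.10 (-0.13 to -0.06). Further members among the 10 with the most copies had log2 ratios of 0.22 (Rpl17), 0.15 (Rps26), -0.01 (Rps3) and -0.04 (Rps2). A transcript gives mainly 1 tag, so that copies are not scaled by gene length here, and the order by copies is a description.

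The paralogs were at the bottom of the range. Rpl22l1, a relative of Rpl22, had 28 and 29 copies and a log2 ratio of 0.09 (-0.71 to 0.89), while Rpl22 had 2739 and 3153 copies. Rps4y2 had 2 and 4 copies, and Rpl3l, the muscle form of Rpl3, had 2 copies in the control library and was the 1 member with no copy in the RNAi library. No fold is given for the last 2, which were near 3 copies, a floor set here and not a limit of the data. Rpl37l1 is the current symbol of a row that the tables describe as ribosomal protein L37, and it had 2732 and 3452 copies. Rat has many ribosomal pseudogenes: of 1140 entries with a ribosomal protein symbol in the RefSeq gene table, 864 carry the pseudogene ending and 229 the ending for like genes. The tables list each tag under 1 gene, so copies from such relatives may be counted under a member.

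The tags of 1 member often moved in different directions. The 75 members had 1033 tags, of which 214 had at least 20 copies. The most copied tag lay at site 1 in 64 members and held a median of 88.2% of the member's copies. Of 50 members with at least 2 tags of 100 copies or more, 36 (72.0%) had tags on both sides of 0. Among 1063 other genes with as many tags, 53.6% did. The median distance between the highest and the lowest tag of a member was 0.62 on the log2 scale, beside 0.55 for the other genes, and in 13 members it was over 1.

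Rpl11 was the clearest case. Its tag at site 1 and its tag at site 2 were these:
Rpl11 site 1: catgcgctggttccagcagAA
Rpl11 site 2: catgcgggaacttcgtatcCG
The first had 450 copies in the control library and 2444 in the RNAi library, a log2 ratio of 2.48 (2.33 to 2.63). The second had 312 and 418 copies and a log2 ratio of 0.46 (0.24 to 0.67). With the most copied tag left out, Rpl11 had 314 and 458 copies and a log2 ratio of 0.58, so most of the difference lay on 1 tag.

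Rps14 and Rps9 showed the same in the other direction:
Rps14 site 1: catgttggctgcccaggatGT
Rps14 site 2: catgttactgatctttctgGC
Rps9 site 1: catgcccgtgtgctcatccGC
Rps9 site 2: catgccggtcgccagaagcTG
The site 1 tag of Rps14 had 1609 and 738 copies, a log2 ratio of -1.09 (-1.22 to -0.96), while its site 2 tag had 573 and 619 copies and a log2 ratio of 0.15 (-0.02 to 0.31). The site 1 tag of Rps9 had 2139 and 2164 copies and a log2 ratio of 0.05 (-0.03 to 0.14), and its site 2 tag had 427 and 109 copies and a log2 ratio of -1.93 (-2.25 to -1.63). In both genes the tag that was lower ended in GT or TG. Rps2 had the opposite pattern, with 3933 and 3399 copies of the tag at site 1 and 259 and 597 copies of the tag at site 2, a log2 ratio of 1.24 (1.03 to 1.46).

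**Figure D2:**
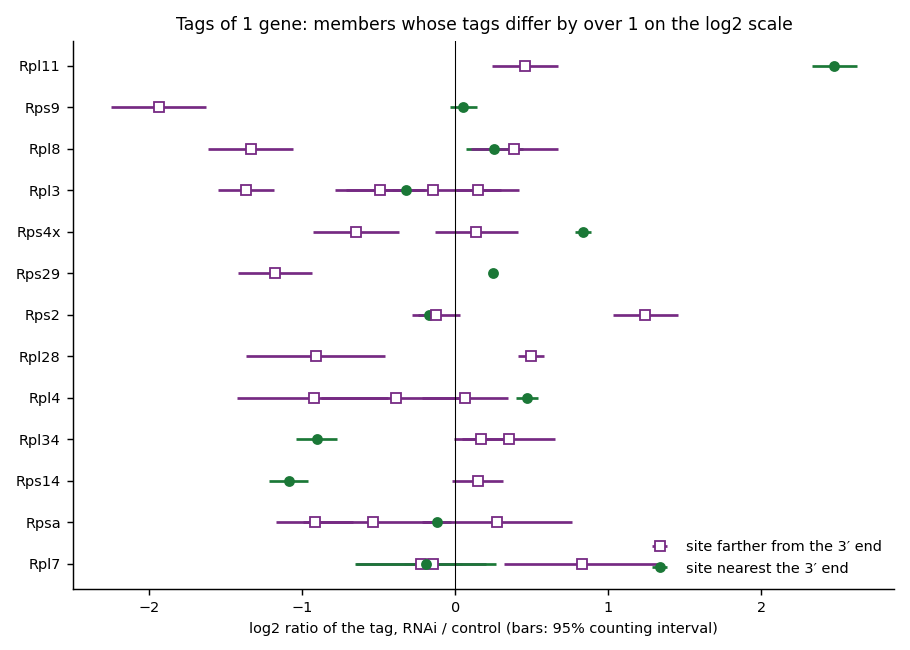
The log2 ratio, RNAi over control, of each tag with at least 100 copies in the 13 members whose tags lie more than 1 apart, with 95% counting intervals, for the site nearest the 3′ end (filled circles) and sites farther from it (open squares). The tags of 1 gene lie on both sides of 0 in 12 of the 13, and in Rpl11 both are above 0.

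Of the 192 member tags with at least 20 copies that were not 1 substitution away from a more copied tag, all 12 that ended in GT were lower in the RNAi library, with a median log2 ratio of -0.76. Of the 620 tags of other genes with that end, 542 were lower, and the median was -0.67. All 7 member tags that ended in TG were lower too, with a median of -0.79. Of 856 tags of other genes with that end, 646 were lower, and the median was -0.67. Some of these member tags come from the same gene, as in Rpl3. At the other end, 17 of 20 member tags ending in AA and 10 of 11 ending in CA were higher, with medians of 0.28 and 0.16. For other genes the medians were 0.16 and 0.16, and 351 of 958 and 381 of 1037 such tags were lower. The 9 member tags ending in GG did not follow the others, with 5 higher and a median of 0.09. Of 666 tags of other genes with that end, 516 were lower, and the median was -0.56. The member tags ending in CG went further than other tags with that end, with a median of -0.91 over 10 tags beside -0.06 over 220. The tag of Rps4x with a run of 9 A had a log2 ratio of 0.83 (0.78 to 0.89), beside a median of 0.92 over 19 tags of other genes with the same run.

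Across the 73 members, the log2 ratio of the most copied tag went with the median of other genes' tags of the same end, with a Pearson's r of 0.56 and a Spearman's rho of 0.60. Without Rpl11 these were 0.62 and 0.60. These values describe genes of the same libraries that share tag ends, and carry no test. The 9 members with at least 20 copies whose most copied tag ended in AT, GG, GT or TG, the ends with the lowest medians, had a median log2 ratio of -0.44, and the other 64 had a median of 0.02.

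**Figure D3:**
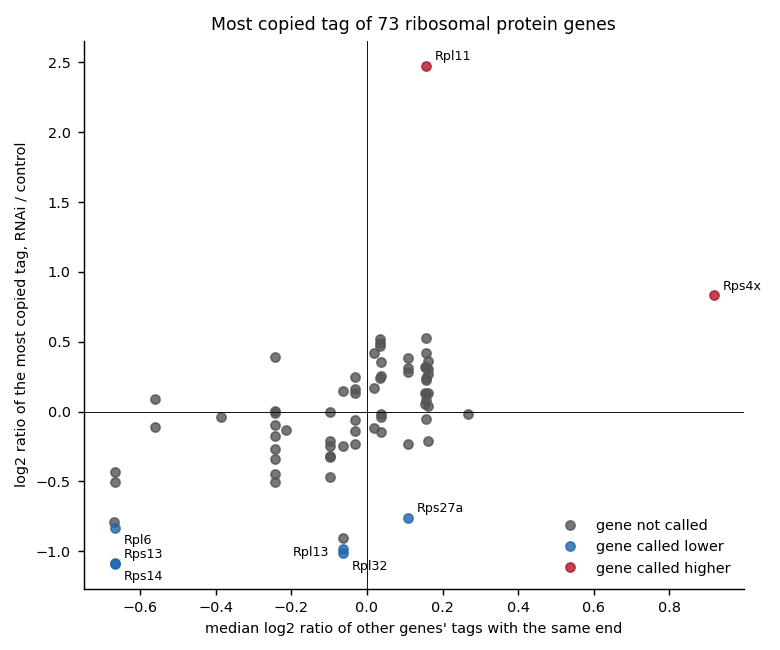
The log2 ratio of the most copied tag of each of 73 ribosomal protein genes (vertical) against the median log2 ratio of other genes' tags with the same end (horizontal), with called genes in colour and named. Rpl6, Rps13, Rps14 and Rps4x lie where other genes' tags with that end also lie far from 0, and Rpl11, Rpl13, Rpl32 and Rps27a lie where these are near 0.

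When every tag's ratio was corrected by the median of its end class among other genes, 3 members stayed called lower and 1 stayed called higher. Rpl32 had a corrected log2 ratio of -0.97, Rpl13 of -0.82 and Rps27a of -0.96, and Rpl11 of 1.78. The most copied tags of Rpl32 and Rpl13 end in CG. Other genes' tags with that end had a median of -0.06, so the correction moved these 2 genes little. The 10 member tags with that end, these 2 among them, had a median of -0.91. Rpl6 moved to -0.23, Rps13 to -0.41 and Rps14 to -0.35, which passed the FDR but not the ratio threshold. Rps4x changed sign, from 0.76 to -0.15. The distance between the quartiles of the 73 members shrank from 0.46 to 0.36, and that of other genes with at least 1000 copies from 0.47 to 0.38. Among all genes the calls went from 5.97% to 3.77% lower and from 2.96% to 1.82% higher. The class medians were taken from tags of non-members. A narrower spread and fewer calls among those genes were thus partly fixed in advance, and they carry no test of the correction.

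**Figure D4:**
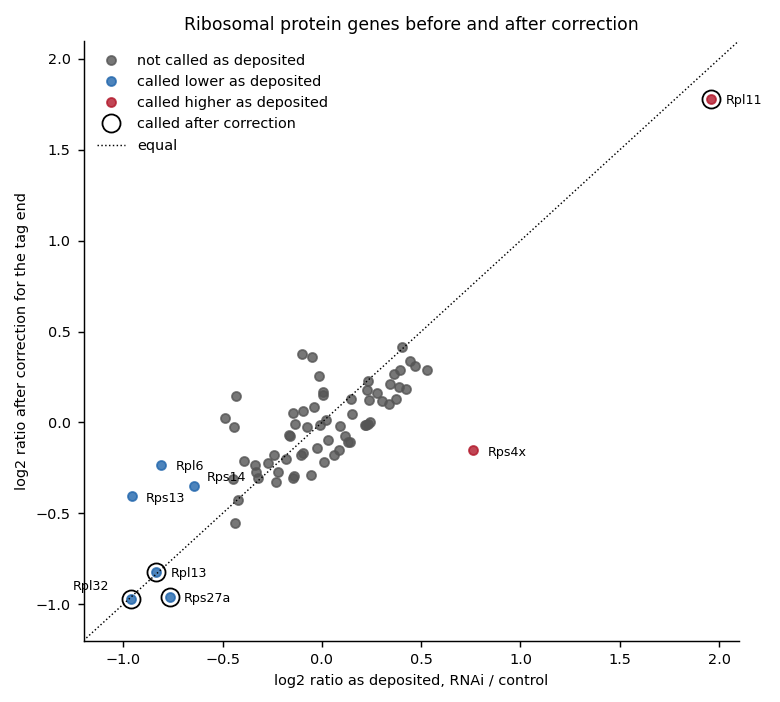
The log2 ratio of 73 ribosomal protein genes as deposited (horizontal) and after correction for the tag end (vertical), with a dotted line where both are equal and rings around genes called after correction. Rpl11, Rpl13, Rpl32 and Rps27a keep their place near the line, Rpl6, Rps13 and Rps14 move up toward 0, and Rps4x falls from 0.76 to -0.15.

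The calls rested mostly on 1 tag per member, and the other tags of 2 members hold no second measurement. Leaving out the most copied tag and every tag 1 substitution away from a more copied one, Rps27a and Rpl6 had no copy left, so that each is measured by 1 tag only. Of the other members called lower, Rpl13 then had 303 and 269 copies, a log2 ratio of -0.14, and Rpl32 had 71 and 50 copies, a log2 ratio of -0.47. Rps13 had 53 and 63 copies, 0.29, and Rps14 had 573 and 619 copies, 0.15. Of the members called higher, Rpl11 had 0.46 and Rps4x had 511 and 429 copies, -0.22. In all 6 members with such tags, they were nearer to 0 than the most copied tag. These members were called on totals made mostly of that tag, so this count was largely fixed by the choice. With every tag ending in 8 or more A left out, the log2 ratio of Rps4x was -0.05.

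Most tags of the members were near copies of a more copied tag. Of the 1033 tags, 824 (79.8%) were 1 substitution away from a more copied tag of the same gene and site, and together they held 1.60% of the members' copies. Among tags of other genes 9.73% were of that kind, with 1.06% of the copies. No tag with fewer than 2 copies is listed, so rare near copies can show only beside tags of many copies. Most members are deep, and these shares were not compared at like depth. The ones with the most copies may be read against their neighbours, with the substituted base in capitals and positions counted from 1 at the 5′ end of the tag.
Rpl28 tag: catgatccgaaaGaacaagta
Rpl28 near copy: catgatccgaaaAaacaagta
Rps23 tag: catgataaGcagtacaagaaa
Rps23 near copy: catgataaAcagtacaagaaa
The near copy of Rpl28, G13A, had 931 and 1049 copies beside 1835 and 2522 of the tag it resembles. The near copy of Rps23, G9A, had 298 and 367 copies beside 446 and 520. Both near copies were higher in the RNAi library, with log2 ratios of 0.21 and 0.34, and so were the tags they resemble, with 0.49 and 0.26. Leaving all near copies out kept 6 members called lower and 2 higher.

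Where transcription starts, many members carry the pyrimidine tract of a TOP mRNA in the RefSeq annotation of the GRCr8 assembly. The tract was searched on the sense strand as a C followed by at least 4 further C or T, beginning within 10 bases before or after the annotated start. Of 61 members with a start region in the RefSeq table, 46 (75.4%) had it, beside 28.6% of 7588 other listed genes and 31.3% of all 27457 symbols with a start region. At the first annotated base itself, 22 members (36.1%) had it, beside 2.48% of the other listed genes. The 30 bases around the start of 5 members follow, 10 before it and 20 from it on, with the tract in capitals where there is one.
Rpl10 (chrX:157205840-157205869, plus strand): gtgggagcgtCTCTTTTCCTCTggcgcggt
Rps7 (chr6:50999426-50999455, minus strand): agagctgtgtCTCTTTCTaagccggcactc
Rpl13 (chr19:68062504-68062533, plus strand): cggtgcccgatCCTTTCCgctcggccgttc
Rps4x (chrX:71342902-71342931, minus strand): cgcgcgcagCCTCCgaccctaatttcttcg
Rpl11 (chr5:153560783-153560812, minus strand): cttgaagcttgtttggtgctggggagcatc
The tracts of Rpl10 and Rps7 open the transcript, that of Rpl13 begins 1 base after the start, and that of Rps4x begins 1 base before it. No tract of this form stands in the window of Rpl11, which says only that these letters are not there at this annotated start. The log2 ratios of the 5 genes were 0.40, 0.43, -0.84, 0.76 and 1.96 in that order, so genes with a tract stood on both sides of 0.

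The genes around the ribosome gave the following values. Rack1, a small subunit protein whose symbol the rule does not take, had 3997 and 3586 copies and a log2 ratio of -0.12 (-0.19 to -0.06), while Fau is not analysed here. Of 57 ribosome biogenesis genes, 46 were listed, with a median log2 ratio of -0.21. Of these, 6 were called lower and none higher, beside 5.97% and 2.96% of all genes, and by the FDR alone 6 were lower and 4 higher, beside 9.53% and 7.14%. The 6 were Npm1, a nucleolar chaperone (3901 and 2297 copies, log2 ratio -0.73), Ncl, nucleolin (558 and 316, -0.78), Nop58 (164 and 92, -0.80) and Nop10 (971 and 622, -0.61) of the small nucleolar ribonucleoproteins, Nmd3, which carries the large subunit out of the nucleus (79 and 38, -1.02), and Eif6, which keeps it from joining too early (129 and 83, -0.60). Of 14 other TOP mRNAs listed, 2 were called lower, Eif3e (563 and 258 copies, -1.09) and Hnrnpa1 (11085 and 7077, -0.61). None was called higher, beside 5.97% lower and 2.96% higher of all genes. By the FDR alone 5 were lower and 5 higher, beside 9.53% and 7.14%, and the median of the 14 was -0.08. The elongation factors stood on both sides, with Eef1a1 at -0.33 and Eef1g at 0.32.

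The mitochondrial ribosomal proteins, which build the separate ribosome of the mitochondrion, had 67 genes listed. Of these, 9 were called lower (13.4%) and 2 higher, beside 5.97% and 2.96% of all genes, and their median log2 ratio over 64 genes was -0.06, beside -0.01 for the cytosolic ones. They had far fewer copies, 10047 in all in the control library and 9780 in the RNAi library, and the log2 ratios of those 64, which have at least 20 copies, ran from -1.26 to 1.84. Mrpl49, one of the 9, had 13 and 2 copies. The values of this list, and of the ribosome biogenesis and other TOP genes above, are as deposited, without the correction for the tag end. With that correction, 3.77% of all genes were called lower and 1.82% higher.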

How the data were processed

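One digital gene expression library from control and 1 from RNAi neurons were analysed. The authors deposited, per gene, the tag count and the TPM (tags per 1000000 clean tags), and the sequence and copies of each tag. The submitters' processing notes name rn4; the program that matched tags to genes is not given in the sources used here. No tag had fewer than 2 copies. Totals of clean tags were recovered from count and TPM. Symbols came from RefSeq by accession for 94.4% of genes.

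The members and lists were chosen with earlier results of these data known. Fisher's exact test, two-sided, compared each gene's copies with all other copies on genes, with Benjamini-Hochberg adjustment over 9894 genes, which gives the FDR. Since each condition had 1 library, it compares 2 libraries and not the conditions. Calls used the study's thresholds, FDR of 0.05 and log2 ratio of 0.58. Intervals are exact (Clopper-Pearson, 95%). The correction grouped tags with the same 2 final bases, and tags ending in 3 or more A with the same length of run. The median of each class, over tags of non-members with at least 20 copies and relative to all such tags, was divided between the libraries. Named members were those called, the 5 largest rises and falls with at least 50 copies in both libraries, the 10 most copied, and the members of small role groups. Other genes and tags were picked after their values were seen. Some genes are not reported here by name. The test was tried on simulated libraries. The alternatives were other totals, edgeR's TMM factors and DESeq2's size factors, edgeR's exact test with an assumed coefficient of variation, filters, thresholds and subsets of tags or members. Python 3.11.15, SciPy 1.17.1, pandas 2.3.3, R 4.3.3, edgeR 4.0.16 and DESeq2 1.42.0 were used.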

Additional observations from a re-analysis of the deposited data

How the results depend on the processing

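With 1 library per condition, no spread between cultures could be measured, and no test here speaks for the conditions. No paired analysis was possible because each condition had 1 library. With all clean tags as totals, at least 10 copies in both libraries, 1 copy added, copies summed per symbol or the narrow list of members, 6 members were called lower and 2 higher, as in the report. With all clean tags as totals, 27 members passed the FDR lower, against 23, and 25 higher in both. The median log2 ratio of the members, -0.01, moved to 0.082 with TMM factors and to 0.073 with DESeq2 size factors, while that of all genes moved from -0.08 to 0.01 and 0.00. With an assumed coefficient of variation of 0.1, 5 members passed the FDR lower and 2 higher, and with 0.2, 0 and 1, so that 0 were called lower and 1 higher. A log2 threshold of 1 left 0 called lower and 1 higher.

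Without the tags that end in 8 or more A, 1 member was called higher, Rps4x stood at -0.054, and the members held 11.8% of the copies on genes in the control library and 12.2% in the RNAi library. After correction for the tag end, 3 were called lower and 1 higher, Rps4x stood at -0.15, and the shares were 12.1% and 12.2%, closer to each other than the 11.98% and 12.35% as deposited. On the most copied tag of each gene, 8 were called lower and 2 higher, and the shares were 14.4% and 14.6%. The alternatives added after seeing the data were those without near copies, with shares of 11.9% and 12.3%, and those without the most copied tag. In the latter, 10 members passed the FDR lower and 15 higher, and the shares were 6.31% and 6.52%. Of the 71 members left, 4 were called lower (Rps27a, Rps29, Rps9 and Rpsa), beside 3.01% of all genes. Another 2 were called higher, Rpl37l1 and Rpl11, the latter just past the threshold at 0.58, beside 1.54%. Rps27a and Rpl37l1 had only near copies left. The log2 ratios of Rpl6, Rps13 and Rps14 turned to 0.14, 0.40 and 0.14 and that of Rps29 to -0.84, where the value of Rpl6 comes only from near copies of the tag left out. Beyond the removal or weighting of tags itself, the cause of these moves was not tested.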
